A study of Rattus norvegicus with 8 samples.

Results

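Transforming growth factor beta (TGF-beta) and activin signalling was followed through 9 rat genes: the ligand genes Tgfb1, Tgfb2, Tgfb3, Inhba, Bmp7 and Gdf15, the antagonist gene Fst, and the receptor genes Tgfbr1 and Tgfbr2. They were chosen by name, with earlier results of these data known. All 9 were found among the 12765 genes that the authors' value table holds with a RefSeq symbol. A gene with several probes was read on the 1 that was brightest on average over the samples.

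The ligands of this family are secreted dimers that bring together type II and type I serine/threonine kinase receptors, which phosphorylate SMAD transcription factors. The TGF-beta isoforms leave the cell in a latent complex and bind the type II receptor encoded by Tgfbr2, which recruits the type I receptor encoded by Tgfbr1. Inhba encodes the subunit of activin A, and Fst encodes follistatin, a secreted protein that binds activin and keeps it from its receptors. Bmp7 is a bone morphogenetic protein that signals through other SMADs, and Gdf15 is a stress-induced, divergent relative. In peripheral nerve, TGF-beta is known as a signal between macrophages, fibroblasts and Schwann cells, the glia that ensheath axons.

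Total RNA was measured on 8 one-colour Agilent arrays, 1 for each group. The nerve groups, all of day 1 after transection of the left sciatic nerve in adult female Sprague-Dawley rats, were the distal segment, the proximal segment and the right nerve, whose label names it as control and mentions a PBS injection site. The cord groups, of day 5, carry the labels dorsal hemisection and, as the control, C-level. Those labels speak of an injection while the protocol speaks of an injury. Each nerve or cord sample was a pool of 3 animals. The last groups were primary Schwann cells from newborn Sprague-Dawley nerves, depleted of fibroblasts with AraC, a Thy1.1 antibody and complement, passaged, and grown with serum, pituitary extract and forskolin. They were left unstimulated for 24 h, or given the S100A8/A9 protein complex, a neutrophil product, at 5 µg/ml for 1 h or 24 h, so 1 unstimulated culture of 24 h stood against both times.

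Values are the authors' deposited log2 values under the headings of the value table. For 7 of 8 columns, the scan that ranks the probes alike belongs, on record, to a different sample, and every direction below rests on those headings being right. By the headings, all 6 neuron markers measured were at least 2-fold higher in C-level cord than in contralateral nerve, and all 8 macrophage markers at least 2-fold lower in unstimulated Schwann cells than in that nerve. These markers do not test the labels within 1 tissue. The share of probes well above background ranged from 66.7% to 77.6% over the arrays. With 1 array per group no difference has a replicate check, and no p-value is given. The error after ± is technical: the spread of replicate spots at that signal level, divided by the square root of the number of spots (1 to 10 for these probes). It leaves out labelling, hybridisation and animals. A difference of at least 2-fold is at least 1 on the log2 scale. Fewer cells of a type and less RNA per cell cannot be told apart in these samples.

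Inhba and Gdf15 stood furthest above the contralateral nerve among the 9 genes in both injured segments, and their promoter sequences are therefore shown. Each is the 250 bases before the annotated start, 5′ to 3′ on the gene's strand, from RefSeq (assembly GRCr8), with motif matches in capitals. The window of Inhba lies at chr17:53804509-53804758 on the minus strand. That of Gdf15 lies at chr16:18839015-18839264 on the plus strand and is the downstream one of 2 annotated starts.
Inhba: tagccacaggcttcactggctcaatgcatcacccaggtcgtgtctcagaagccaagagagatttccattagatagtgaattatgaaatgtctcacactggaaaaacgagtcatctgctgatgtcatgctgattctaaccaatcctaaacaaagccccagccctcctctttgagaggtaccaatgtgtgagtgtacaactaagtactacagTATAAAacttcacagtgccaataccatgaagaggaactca
Gdf15: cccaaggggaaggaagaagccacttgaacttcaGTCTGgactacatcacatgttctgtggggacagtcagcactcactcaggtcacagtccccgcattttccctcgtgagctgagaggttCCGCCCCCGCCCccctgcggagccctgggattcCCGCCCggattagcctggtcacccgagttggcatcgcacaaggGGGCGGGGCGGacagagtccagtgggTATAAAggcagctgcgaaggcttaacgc

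Both windows hold a TATA box (TATAAA), from base -40 to -35 before the start in Inhba and from -28 to -23 in Gdf15. On either strand, 12.9% of 33465 promoter windows of this length hold it. The Gdf15 window also holds 5 matches of the GC box (GGGCGG, in 30.5% of windows), of which a pair share 1 base, and 1 match of the SMAD element (CAGAC, in 42.9%). No match was found in either window for AP-1 (TGANTCA, 6.34% of windows), the cyclic AMP element (TGACGTCA, 1.59%), the CHOP and ATF4 element (TGATGNAA, 3.4%) or NF-kB (4.36%), where N is any base. The other Gdf15 window held none of the 7 motifs. Of the 9 genes 7 had a window in the table, and Bmp7 and Fst were the others. A match describes letters only.

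**Figure D1:**
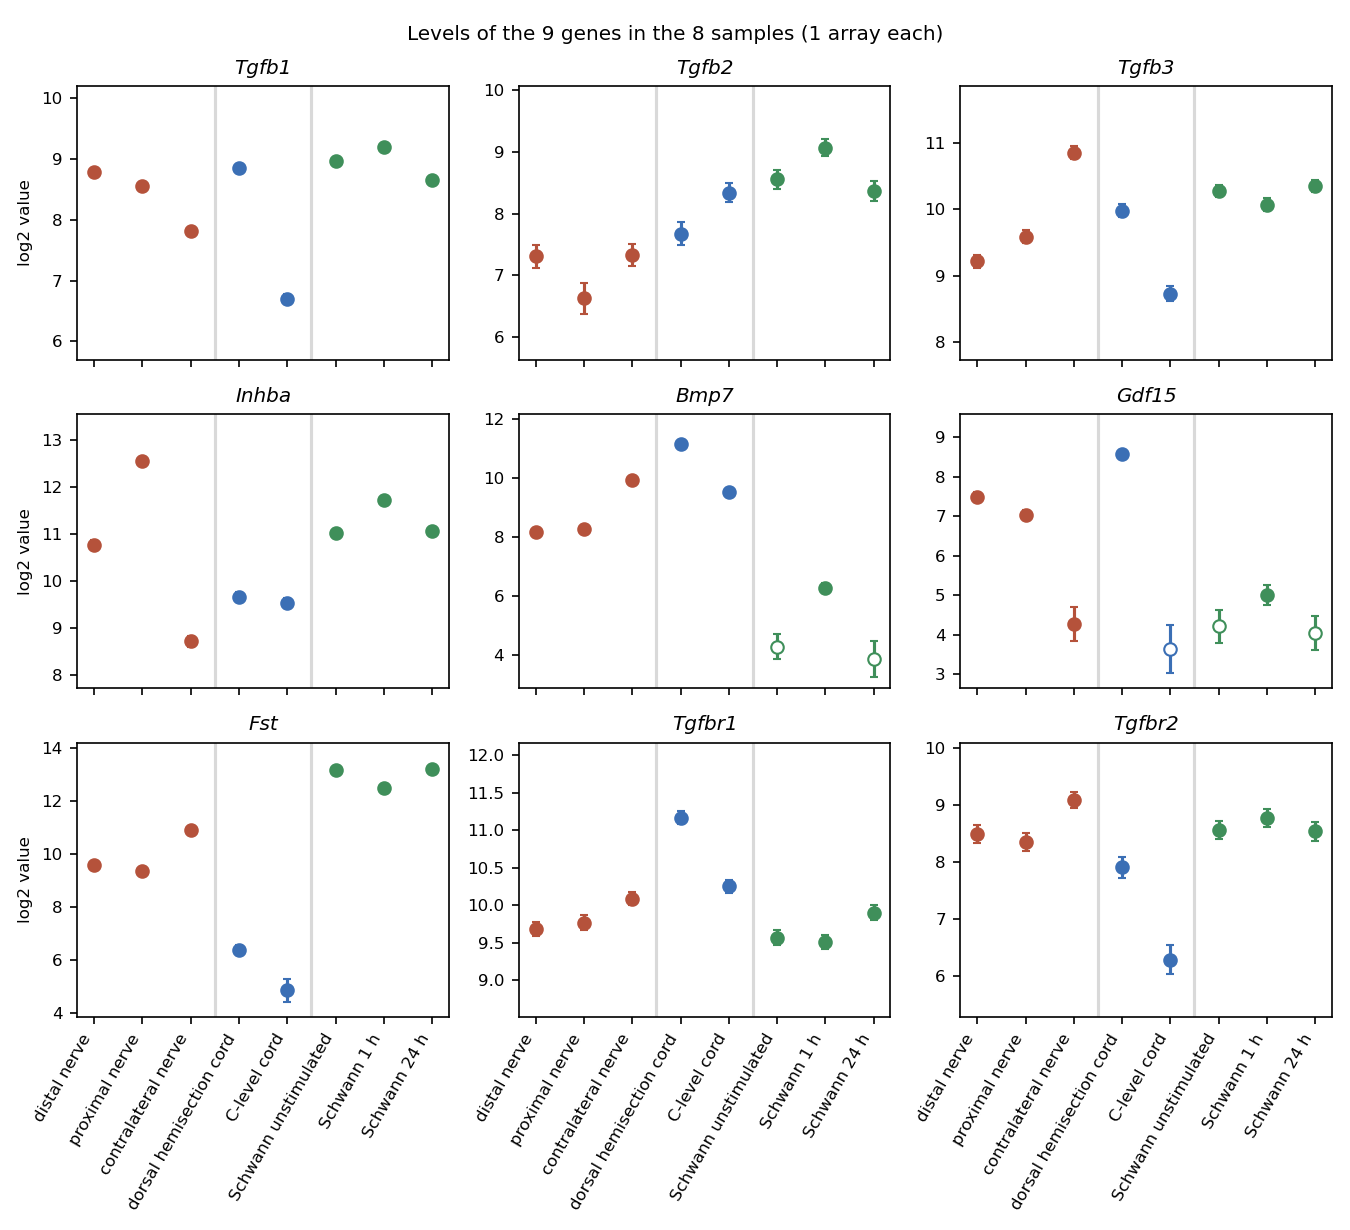
Log2 value of each of the 9 genes (vertical axis, 1 panel per gene) in the 8 samples (horizontal axis; red nerve, blue cord, green Schwann cells). Bars are 2 technical errors, often smaller than the point, and open points were not well above background. Inhba is highest in proximal nerve (12.54), Gdf15 and Bmp7 in dorsal hemisection cord (8.57 and 11.17), and Fst stands between 12.50 and 13.19 in the 3 cultures.

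The TGF-beta isoform genes followed different patterns. Tgfb1 (NM_021578), the isoform best known from inflammation and fibrosis, stood at 8.79 in distal nerve, 8.55 in proximal nerve and 7.81 in contralateral nerve. Its level was 8.85 in dorsal hemisection cord and 6.69 in C-level cord. The cultures lay at 8.96 unstimulated, 9.19 at 1 h and 8.66 at 24 h. Both injured segments thus stood above the contralateral nerve, and C-level cord was the lowest of all samples. Dorsal hemisection cord and distal nerve differed by less than 2 technical errors (0.06 ± 0.04), and the other neighbours in the order by more.

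Tgfb2 (NM_031131), an isoform expressed widely in the developing nervous system, stood at 7.31, 6.63 and 7.33 in distal, proximal and contralateral nerve. It was at 7.68 in dorsal hemisection and 8.34 in C-level cord, and at 8.55, 9.07 and 8.36 in cultures unstimulated, at 1 h and at 24 h. Schwann cells and C-level cord therefore held the highest levels, and proximal nerve the lowest. The unstimulated and 24 h cultures, the 24 h culture and C-level cord, and contralateral and distal nerve were neighbours within 2 technical errors. On this probe it is the 1 gene of the 9 that was lower in dorsal hemisection than in C-level cord. A second, dimmer probe of Tgfb2, above background in every sample, gave other differences. For proximal against contralateral nerve it gave 0.36, where the main probe gave -0.71 ± 0.16. For dorsal hemisection against C-level cord it gave 0.02, where the main probe gave -0.67 ± 0.12, so the direction of Tgfb2 in both rests on 1 of 2 probes.

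Tgfb3 (NM_013174), the third isoform, had its highest level in contralateral nerve. Values were 9.21 in distal, 9.58 in proximal and 10.85 in contralateral nerve, and 9.98 in dorsal hemisection and 8.73 in C-level cord. The cultures were close together, at 10.28 unstimulated, 10.07 at 1 h and 10.35 at 24 h. Neighbours within 2 technical errors were the 24 h and unstimulated cultures, and the 1 h culture and dorsal hemisection cord. Injured nerve thus stood below the contralateral nerve for Tgfb3 and above it for Tgfb1.

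Inhba (NM_017128) was at 10.77 in distal, 12.54 in proximal and 8.71 in contralateral nerve. It stood at 9.66 in dorsal hemisection and 9.53 in C-level cord, a gap of less than 2 technical errors (0.14 ± 0.07). In culture it was at 11.02 unstimulated, 11.72 at 1 h and 11.06 at 24 h. Proximal nerve had the highest level of all samples and contralateral nerve the lowest.

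Fst (NM_012561), the activin antagonist, was at 9.60 in distal, 9.35 in proximal and 10.92 in contralateral nerve. It was at 6.38 in dorsal hemisection and 4.87 in C-level cord. The cultures had the highest levels, at 13.18 unstimulated, 12.50 at 1 h and 13.19 at 24 h. Its range over the 8 samples, 8.32 on the log2 scale, was the widest of the 9 genes.

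Bmp7 (NM_001191856) was highest in cord and contralateral nerve and lowest in culture. It was at 8.19 in distal, 8.29 in proximal and 9.93 in contralateral nerve, and at 11.17 in dorsal hemisection and 9.53 in C-level cord. In culture it was well above background only at 1 h, at 6.27, and not well above background unstimulated (4.27) or at 24 h (3.86). Across the 8 samples the Pearson correlation of Bmp7 with Fst was -0.82, a description in which the 3 tissues set most of the spread.

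Gdf15 (NM_019216) was at 7.48 in distal and 7.03 in proximal nerve and close to background, at 4.28, in contralateral nerve. It reached 8.57 in dorsal hemisection cord and was not well above background in C-level cord (3.65). In culture it was at 5.01 at 1 h, and not well above background unstimulated (4.21) or at 24 h (4.05). The 3 highest samples were thus dorsal hemisection cord and both injured segments. Among the 4 lowest samples, contralateral nerve, C-level cord and the unstimulated and 24 h cultures, no neighbours differed beyond 2 technical errors.

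The receptor genes had different ranges. Tgfbr1 (NM_012775) was at 9.68, 9.77 and 10.09 in distal, proximal and contralateral nerve, at 11.17 in dorsal hemisection and 10.25 in C-level cord, and at 9.57, 9.51 and 9.90 in cultures unstimulated, at 1 h and at 24 h. Its range of 1.66 on the log2 scale was the narrowest of the 9, beside 2.79 for Tgfbr2, and the segments did not differ beyond 2 technical errors. Tgfbr2 (NM_031132) was at 8.49, 8.35 and 9.08 in distal, proximal and contralateral nerve, and at 8.56, 8.76 and 8.53 in cultures unstimulated, at 1 h and at 24 h. Cord stood lower, at 7.91 in dorsal hemisection and 6.29 in C-level. Neither segment differed from the other, nor the unstimulated culture from that of 1 h or 24 h, beyond 2 technical errors for Tgfbr2.

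The first comparison set the nerve beyond the cut against the contralateral nerve. Of the 9 genes 2 were at least 2-fold higher in distal nerve and 3 at least 2-fold lower. Among all 12132 measured genes the shares were 13.9% on the higher and 14.3% on the lower side. Gdf15 was 3.20 ± 0.22 higher on the log2 scale (9.19-fold) and Inhba 2.05 ± 0.07 (4.15-fold). With normexp, here another background correction followed by quantile normalization between arrays, Gdf15 was at 1.43. Bmp7 was at -1.74 ± 0.07, Tgfb3 at -1.64 ± 0.07 and Fst at -1.32 ± 0.07. Tgfb1, at 0.98 ± 0.04, fell just short of 2-fold, and Tgfb2 was level (-0.02 ± 0.13). The receptors were slightly lower, with Tgfbr1 at -0.41 ± 0.07 and Tgfbr2 at -0.59 ± 0.11.

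The proximal nerve, set against the same contralateral array, had the same genes past 2-fold: 2 of 9 higher and 3 lower, against 11.7% and 11.8% of 12243 genes. Inhba was 3.82 ± 0.07 higher (14.2-fold), with 99.1% of genes below it, and Gdf15 2.76 ± 0.22 higher (6.75-fold), or 1.15 with normexp. Bmp7 was at -1.64 ± 0.07, Fst at -1.57 ± 0.07 and Tgfb3 at -1.27 ± 0.07. Tgfb1 was at 0.74 ± 0.04, Tgfbr1 at -0.32 ± 0.07 and Tgfbr2 at -0.73 ± 0.11. Both comparisons share the contralateral array, so any feature of it enters both.

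Set directly against each other, the segments differed by 2-fold in 1 of the 9 genes. Inhba was lower in distal than in proximal nerve by 2-fold or more (-1.77 ± 0.06, or 3.41-fold), and none of the 9 was that much higher. Of 12222 genes 1.94% were at least 2-fold lower distally and 1.24% higher. Tgfb2 was at 0.68 ± 0.16 on its main probe and at -0.01 on its second. Gdf15 was at 0.45 ± 0.09, while Bmp7, Tgfbr1 and Tgfbr2 lay within 2 technical errors of 0.

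Markers of other cells moved with these values. All 8 skeletal muscle markers were at least 2-fold lower in distal than in proximal nerve, with a median of -3.68. Their summed signal was 12.55 in distal, 15.92 in proximal and 10.63 in contralateral nerve (log2), with all 8 well above background in each. That is the order of Inhba. The summed neutrophil markers had it too (14.4, 14.8 and 10.4), with 6 of 8 well above background in contralateral nerve. So did the summed astrocyte markers. The summed signal of the other marker lists was highest in contralateral nerve. Of 8 neutrophil markers 7 were at least 2-fold higher in each injured segment than in contralateral nerve, and of 8 macrophage markers 5 in distal and 4 in proximal nerve. Of 8 fibroblast markers 6 were at least 2-fold lower in distal and 5 in proximal nerve, and of 8 Schwann cell markers 5 and 4. The part of these cells in the values of Inhba, Gdf15, Tgfb3, Bmp7 and Fst was not tested.

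**Figure D2:**
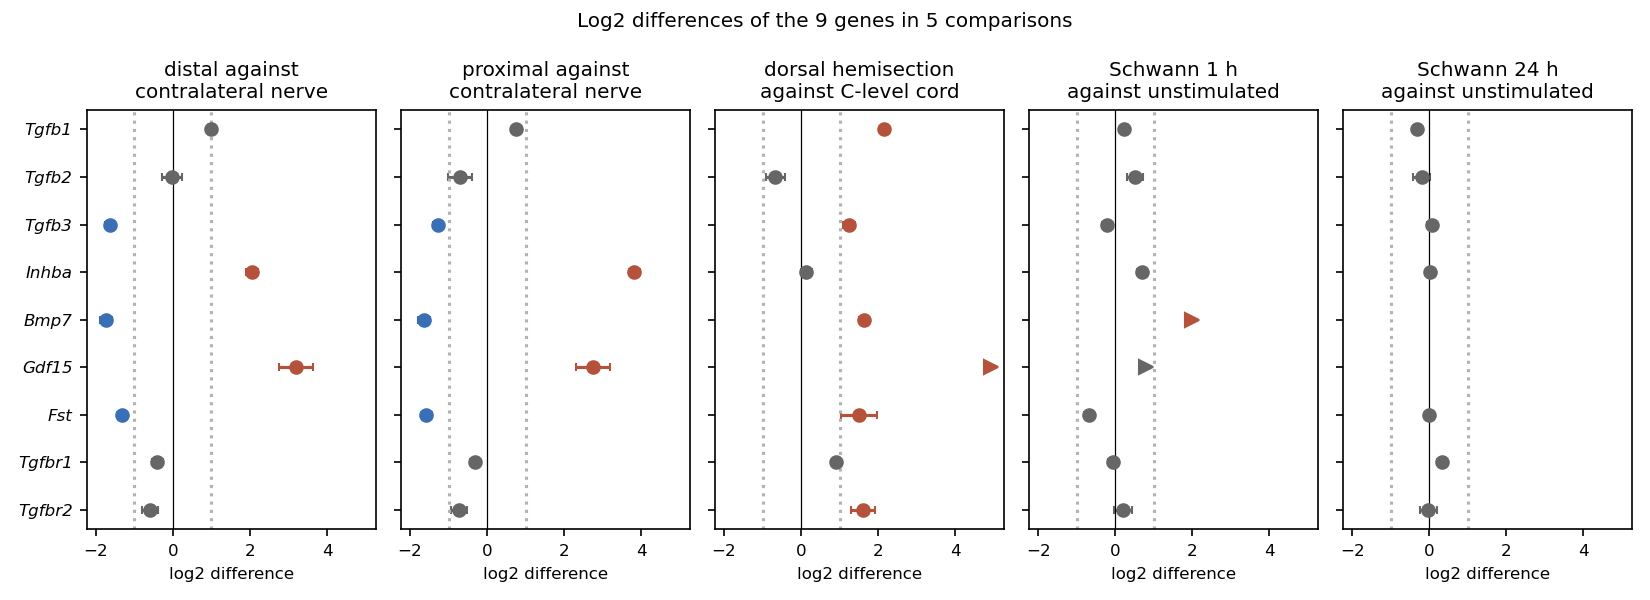
Log2 difference of the 9 genes (rows) in 5 comparisons (panels), with bars of 2 technical errors. Triangles are bounds where 1 sample was not well above background, red is at least 2-fold higher, blue at least 2-fold lower, and dotted lines mark 2-fold. Both injured segments have Inhba and Gdf15 to the right and Tgfb3, Bmp7 and Fst to the left, while in cord 6 of 9 genes lie past 2-fold on the right; Bmp7 and Gdf15 are not drawn for 24 h, where both samples were at background.

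The cord comparison had the most genes apart. In dorsal hemisection cord 6 of the 9 were at least 2-fold higher than in C-level cord and none lower, where 10.2% of 12196 genes were that much higher and 9.24% lower. The median difference over the 9 genes was 1.51, beside -0.04 over all genes. Gdf15 was at least 30.5-fold higher, since C-level cord was not well above background. Tgfb1 was 2.15 ± 0.05 higher (4.45-fold), Bmp7 1.64 ± 0.07, Tgfbr2 1.62 ± 0.16, Fst 1.51 ± 0.23 and Tgfb3 1.25 ± 0.07. Tgfbr1 was at 0.92 ± 0.06, Inhba at 0.14 ± 0.07 and Tgfb2 at -0.67 ± 0.12.

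The direction of Bmp7, Tgfb3 and Fst in dorsal hemisection cord was thus the opposite of that in injured nerve, while Gdf15 was past 2-fold on the higher side in both tissues; these differences between tissues were not tested. The labels give the cord samples different regions or levels, which cannot be told apart from the lesion. Of 8 macrophage markers 7 were at least 2-fold higher in dorsal hemisection cord, as were 6 of 8 neutrophil, 4 of 8 fibroblast and 3 of 8 Schwann cell markers. At least 2-fold lower were 5 of 6 neuron, 6 of 8 skeletal muscle and 1 of 6 oligodendrocyte markers. No astrocyte, endothelial or mural marker passed 2-fold. The part of all these cells in the values of the 9 genes was not tested. With normexp, Gdf15 was at 2.32, Fst at 0.61 and Tgfbr2 at 0.92, the last 2 short of 2-fold.

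In Schwann cells the complex was set, at each time, against the 1 unstimulated culture of 24 h. The 1 h culture had no control of its own time, so stimulation and time cannot be told apart there. At 1 h 1 of the 9 genes, Bmp7, was at least 2-fold higher and none lower, where 1.69% of 10968 genes stood above and 1.34% below that margin. Bmp7 was at least 3.99-fold higher, against an unstimulated culture not well above background, but at 0.65 (log2) with normexp. Inhba was at 0.70 ± 0.06 and Tgfb2 at 0.52 ± 0.11, or 0.07 on its second probe. Fst was lower by less than 2-fold (-0.69 ± 0.06), below which lay 2.90% of genes. Gdf15 was at least 1.74-fold higher, Tgfb1 was at 0.23 ± 0.03 and Tgfb3 at -0.21 ± 0.06. The receptors lay within 2 technical errors of 0.

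At 24 h none of the 7 genes measured was 2-fold apart from the unstimulated culture, where 0.635% of 11025 genes were higher and 0.626% lower. Inhba (0.03 ± 0.06), Fst (0.01 ± 0.05) and Tgfb3 (0.08 ± 0.06) lay within 2 technical errors of 0, as did Tgfb2 and Tgfbr2. Tgfbr1 was at 0.33 ± 0.07 and Tgfb1 at -0.31 ± 0.04. Bmp7 and Gdf15 were at background in both cultures and have no fold.

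Set against 1 h directly, the culture of 24 h had Bmp7 at least 5.32-fold lower (-0.72 on the log2 scale with normexp), 1 of 9 genes past 2-fold and none higher (2.03% of 10926 genes lower, 1.86% higher). Fst was at 0.70 ± 0.06, Inhba at -0.67 ± 0.06 and Tgfb2 at -0.71 ± 0.11. At 1 h 2 of 8 Schwann cell markers were at least 2-fold lower than in the unstimulated culture, and at 24 h none. Their part in the values was not tested.

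The unstimulated Schwann cells were also set against the contralateral nerve. Here 4 of the 9 genes were at least 2-fold higher and 1 lower, beside 21.6% and 20.8% of 11944 genes, and the median of all genes was itself at 0.22. Inhba was 2.31 ± 0.07 higher (4.96-fold) and Fst 2.26 ± 0.06 (4.80-fold). Tgfb2 was at 1.22 ± 0.12 and Tgfb1 at 1.16 ± 0.04, or 1.00 and 0.94 with the median of all genes subtracted. Bmp7 was at least 50.4-fold lower in the unstimulated culture. Fibroblast, endothelial and macrophage markers were mostly lower there too (5, 7 and 8 of 8 at least 2-fold), and their part was not tested.

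C-level cord, against the contralateral nerve, had 1 of the 9 genes at least 2-fold higher and 4 lower, beside 18.6% and 19.8% of 12215 genes. Fst was at -6.05 ± 0.22 (66.3-fold lower), Tgfbr2 at -2.79 ± 0.15, Tgfb3 at -2.12 ± 0.07 and Tgfb1 at -1.11 ± 0.05, or -0.73 with normexp. Tgfb2 was just past 2-fold on the higher side (1.01 ± 0.12). It was short of 2-fold with normexp and on its second probe (0.70 each). Tgfbr1 was at 0.16 ± 0.06 and Inhba at 0.82 ± 0.07. All 8 fibroblast markers were at least 2-fold lower in C-level cord (median -4.33), as were 4 of 8 endothelial and mural, 4 of 8 macrophage and 4 of 8 Schwann cell markers. All 6 astrocyte and all 6 oligodendrocyte markers were at least 2-fold higher, like 7 of 8 muscle markers. Their part in the values was not tested.

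Inhba and Fst, ligand subunit and antagonist, differed in opposite directions in injured nerve. The change of Inhba less that of Fst was 3.38 ± 0.10 in distal and 5.40 ± 0.10 in proximal nerve against contralateral nerve (log2). It was 1.39 ± 0.08 in Schwann cells at 1 h and 0.02 ± 0.08 at 24 h, both against the unstimulated culture. In dorsal hemisection against C-level cord it was -1.38 ± 0.24, the other way round. Between unstimulated Schwann cells and contralateral nerve it was 0.05 ± 0.09, as both genes were higher by the same amount within error. The widest gap of the 9 comparisons was that of C-level cord against contralateral nerve, both labelled as controls, at 6.87 ± 0.23. Distal against proximal nerve gave -2.02 ± 0.09, and 24 h against 1 h in Schwann cells -1.37 ± 0.08. These values compare changes, not levels, because levels of different probes are not comparable.

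**Figure D3:**
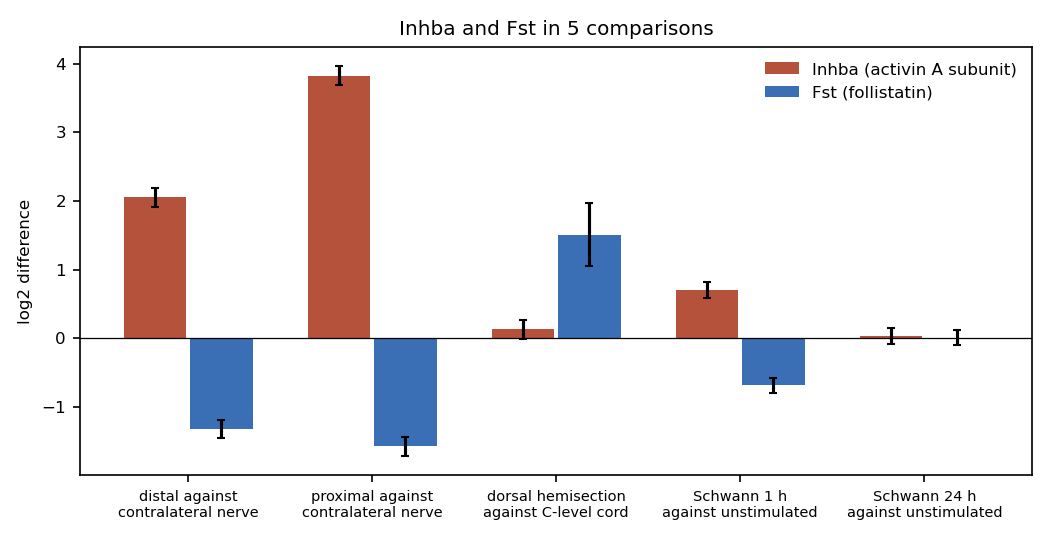
Log2 difference of Inhba (red) and Fst (blue) in 5 comparisons, with error bars of 2 technical errors. Inhba lies above 0 and Fst below it in both nerve segments (3.82 and -1.57 in proximal nerve) and in Schwann cells at 1 h, and Fst alone is past 2-fold in cord (1.51).

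Of 102 further genes of the superfamily pathway 84 were in the value table. Between distal and contralateral nerve 9 of 84 measured genes were higher by 2-fold or more and 27 lower, beside 13.9% and 14.3% of all genes. Their median was -0.44, beside 0.01 over all genes. Between proximal and contralateral nerve 12 of 83 were higher and 17 lower (median -0.34, all genes 0.00), beside 11.7% and 11.8% of all genes. Among the other ligands, 1 of 15 was higher in distal nerve and 5 lower, and 2 of 14 higher in proximal nerve and 5 lower. Bmp4, a bone morphogenetic protein, was at -1.45 ± 0.07 in distal and -1.36 ± 0.07 in proximal nerve, and Gdf10 at -1.504 ± 0.03 and -1.92 ± 0.03. Bmp3 was at -2.73 ± 0.14 and -2.95 ± 0.22, and Bmp6 at -1.93 ± 0.23 and -1.46 ± 0.23. Gdf3 was at least 4.87 higher in distal and at least 3.81 higher in proximal nerve (log2).

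Genes of latency and activation, like all measured genes, went both ways in injured nerve. Thbs1, which encodes the TGF-beta activator thrombospondin 1, was at least 3.25 higher in distal and 3.41 higher in proximal nerve (log2), against a contralateral nerve not well above background. Ltbp2, a relative of the latent TGF-beta binding proteins, was at 1.22 ± 0.25 in distal and 2.12 ± 0.23 in proximal nerve, and Ltbp4, which tethers latent TGF-beta, at -1.92 ± 0.07 and -1.17 ± 0.07. Ltbp3 was at -1.36 ± 0.10 in distal nerve. In proximal nerve Plau, the urokinase gene, was at 1.45 ± 0.07 and the integrin gene Itgb5 at -1.30 ± 0.06. In the list 2 of 13 were higher and 3 lower in distal nerve, and 3 and 2 in proximal nerve. Over all genes 13.9% were higher and 14.3% lower in distal nerve, and 11.7% and 11.8% in proximal nerve.

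Other antagonists and receptors were mostly lower where they passed 2-fold. Of 15 antagonists 7 were at least 2-fold lower and 1 higher in distal nerve, and 5 and 1 in proximal nerve. The shares of all genes were 14.3% lower and 13.9% higher in distal nerve, and 11.8% and 11.7% in proximal nerve. Sostdc1, a secreted antagonist of bone morphogenetic proteins, was at -3.28 ± 0.03 in distal and -2.90 ± 0.03 in proximal nerve. Nbl1 was at -2.14 ± 0.06 and -1.76 ± 0.06, Chrdl1 at -1.86 ± 0.07 and -1.91 ± 0.07, and chordin (Chrd) at -1.94 ± 0.11 and -1.59 ± 0.11. Of 11 other receptor genes 6 were lower and 1 higher in distal nerve, and 3 and 1 in proximal nerve. The type I receptor gene Acvr1c was at -2.21 ± 0.07 in distal and -3.13 ± 0.07 in proximal nerve, and the type II receptor gene Acvr2b at -1.27 ± 0.07 and -1.16 ± 0.07. Bmpr1b was at -1.42 ± 0.14 in distal and Acvr1 at -1.01 ± 0.15 in proximal nerve. The gene on the higher side in both was the coreceptor Eng (1.29 ± 0.07 and 1.60 ± 0.07).

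Of 13 genes for SMADs and their regulators none was 2-fold lower in injured nerve. Among all genes 14.3% were that much lower in distal and 11.8% in proximal nerve. The corepressor Tgif1 was at 1.31 ± 0.07 in distal and 1.21 ± 0.07 in proximal nerve. Pmepa1, a TGF-beta-induced inhibitor of the pathway, was at 1.495 ± 0.06 in proximal nerve. Of 17 genes listed as targets 3 were higher and 6 lower in distal nerve, and 3 and 2 in proximal nerve. The higher side held 13.9% of all genes in distal and 11.7% in proximal nerve. Timp1, which encodes an inhibitor of metalloproteinases, was at 2.27 ± 0.02 in distal and 2.44 ± 0.02 in proximal nerve, while Col1a1, a collagen and fibroblast gene, was at -1.71 ± 0.05 and -1.36 ± 0.05. Junb was at 1.68 ± 0.08 in proximal nerve and Id3 at -1.52 ± 0.07 in distal nerve. Between the segments 1 pathway gene was higher distally, Gdf3 (1.06 ± 0.09), and 2 were lower, Plau (-1.04 ± 0.07) and the integrin gene Itgb6 (at most -1.004). Among all genes 1.24% were higher distally and 1.94% lower.

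In dorsal hemisection cord the same pathway set was mostly on the higher side where it passed 2-fold. There 22 of 77 genes stood above the 2-fold margin and 4 below it (median 0.43, all genes -0.04). Of all genes 10.2% stood above that margin and 9.24% below it. Of 17 targets 9 were higher and none lower, with a median of 1.28. Col1a1, also on the fibroblast marker list, was at 4.18 ± 0.06 and Tnc, which encodes tenascin C, at 3.58 ± 0.13. Col3a1 was at 2.68 ± 0.06 and Tgfbi at 1.96 ± 0.07. The part of cell types in these values was not tested. Of 11 genes of latency and activation 5 were higher, among them Ltbp2 (3.11 ± 0.10), the fibrillin gene Fbn1 (2.03 ± 0.08), Bmp1 (1.13 ± 0.06) and Furin (1.09 ± 0.09), which encodes a protease that cleaves the ligand precursors. Plau was at least 3.75 higher and Gdf3 at least 4.29 (log2). Other antagonists split, with 4 of 15 at least 2-fold higher and 3 lower. Fstl3, a relative of follistatin, was at 1.71 ± 0.14, Grem1 at -1.66 ± 0.23 and Bmper at -1.82 ± 0.11. Tgif1 (1.66 ± 0.07), Pmepa1 (1.16 ± 0.06) and Eng (1.29 ± 0.07) were higher as well, and Acvr1c was at -2.43 ± 0.10.

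**Figure D4:**
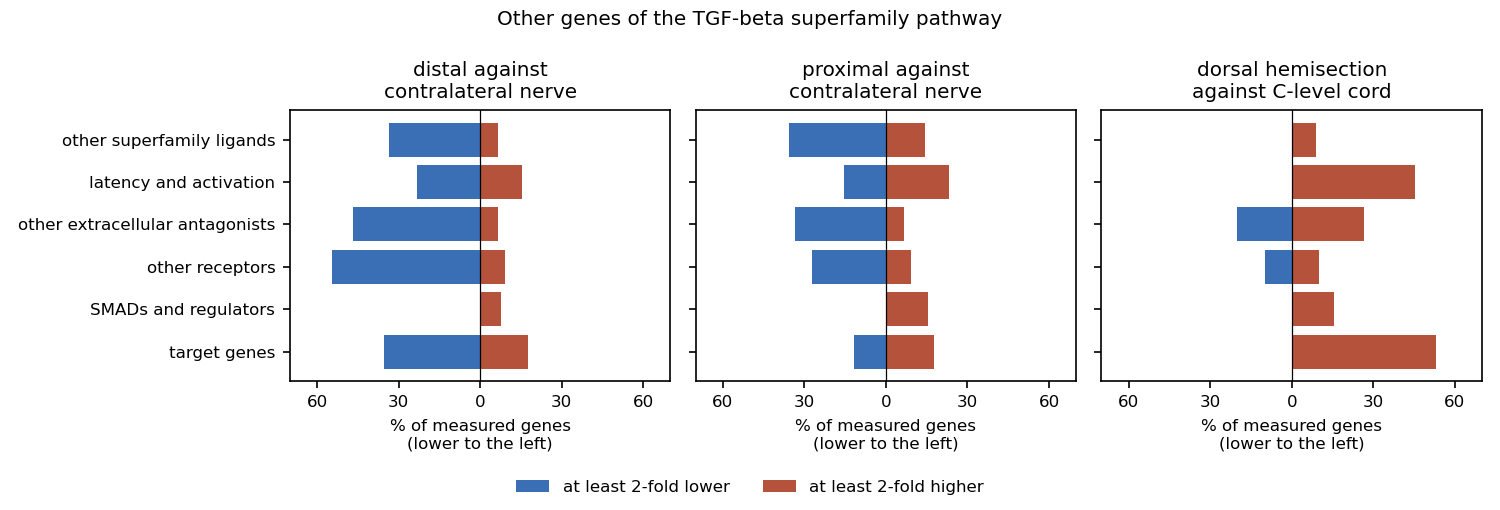
Share of the measured genes of 6 pathway lists (rows) at least 2-fold higher (red, to the right) or lower (blue, to the left), in percent, for distal and proximal against contralateral nerve and dorsal hemisection against C-level cord. Antagonists and receptors extend to the left in nerve (7 of 15 and 6 of 11 in distal nerve), and targets to the right in cord (9 of 17). Of all genes 14.3% were lower in distal nerve and 10.2% higher in dorsal hemisection cord.

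In Schwann cells few pathway genes passed 2-fold, as did few genes of any kind. At 1 h 2 of 72 were higher than in the unstimulated culture and 1 lower, beside 1.69% and 1.34% of all genes. At 24 h 1 of 73 was higher and none lower, beside 0.635% and 0.626% of all genes. At 1 h Plau was at 1.19 ± 0.11 and Ltbp1, which encodes a latent TGF-beta binding protein, at 1.15 ± 0.07, with Sostdc1 at -1.10 ± 0.03. Inhbe, another activin subunit gene, was at least 1.01 higher at 24 h (log2). None of 17 targets passed 2-fold at either time.

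The genes whose profile over the 8 samples was most like that of each gene were taken by Pearson correlation among 10434 genes, as a description over 8 points that share 3 tissues. For Tgfb1 they were H2ac4 (0.985), Nrp1 (0.973) and Hist1h2af (0.967), for Tgfb2 Psapl1 (0.984), Wdr7 (0.969) and Hapln1 (0.968), and for Tgfb3 Megf9 (0.962), Zbed3 (0.936) and Dmd (0.932). Inhba was followed most closely by Mlf1 (0.957), Krtap7-1 (0.949) and Smtnl1 (0.944). For Bmp7 they were Myo9a (0.987), Tlr3 (0.980) and Mfsd2a (0.974), and for Gdf15 Stra6l (0.977), the macrophage metalloproteinase gene Mmp12 (0.975) and Cdh17 (0.961). Fst had the closest match, Fam234a (0.996), then Calhm2 (0.994) and Serpinh1 (0.991). The receptors had R3hdml (0.959), Siae (0.956) and Cstdc2 (0.956) for Tgfbr1, and Slc12a7 (0.987), Mical1 (0.984) and Sdf4 (0.981) for Tgfbr2. Among the 9 genes themselves, the correlation of Fst with Tgfbr2 was 0.81 and that of Tgfb3 with Tgfbr2 0.78.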

How the data were processed

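Total RNA of 8 groups was measured on 1 Agilent array each. The authors' deposited value table holds log2 values of 24894 probes, equal in median (8.03) across columns, so normalized between arrays by a method not given in the sources used here. Scanner files, also deposited, hold spot intensity and flags. Per the file headers they come from Feature Extraction 10.7.3.1, and the submitters' processing notes name 10.5. Array precision is limited by the number of arrays.

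Probe accessions were matched without versions to RefSeq symbols (15213 probes, 12765 genes). Background flags and spot errors came from the scan with the highest rank correlation to each column (over 0.999). A gene counted as measured when at least 0.5 of its spots were well above background in 1 of the samples compared. Where 1 sample was not, the difference is a bound against its own value or the lowest probe above background. The spot error was pooled by level from probes with 10 spots. The calling step was run on simulated data as a check of the code, which gives no error rate for these arrays.

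The 9 genes and the lists were chosen with earlier results of these data known. Named genes are the 9, up to 4 measured genes per list past 2-fold with any larger bound, and 3 of most alike profile. Some genes that this rule names are not reported here. The 7 alternatives used Python 3.11.15, R 4.3.3 and limma 3.58.1 (normexp, offset 50). The scanner files give no mean spot signal, so normexp used the medians. Its offset was added to every signal, and quantile normalization between arrays followed. The part of each of these steps in its differences was not tested.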

Additional observations from a re-analysis of the deposited data

Results flagged for a closer look

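Tgfb1 went in opposite directions at the 2 times of S100A8/A9 in Schwann cells: it was 0.23 higher at 1 h and at -0.31 at 24 h, both against the unstimulated culture (log2). Each value lies beyond 2 technical errors and neither reaches 2-fold. With 1 array per time and no unstimulated culture of 1 h, the difference between the times was not tested.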

How the results depend on the processing

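No paired analysis was possible because each group had 1 array. Of 29 differences of the 9 genes past 2-fold, 26 stayed past it with matched scans scaled to their 75th percentile, 22 with normexp, 28 with the mean of probes, 28 with the median of all genes subtracted and 29 without filter or floor; none of the 29 changed sign there. With both samples well above background, all 25 left stayed past 2-fold.
Taking each scan by its record, which changes the array of 7 of 8 samples, kept 9 of 27 and turned 11. Against contralateral nerve, Gdf15 was then at -1.26 in distal and -4.40 in proximal nerve, Fst at 2.73 and 5.80, and Tgfb3 at 0.062 in proximal nerve. Tgfb3 was at -0.075 in dorsal hemisection against C-level cord, Tgfb1 at -0.38 and Tgfb2 at -1.26 in unstimulated Schwann cells against that nerve, and Tgfb3 at 0.36, Fst at 6.42 and Tgfbr2 at 0.17 in C-level cord against it. The number of the 9 genes 2-fold apart was 5 between the segments, 0 in cord, 5 at 1 h, 7 at 24 h and 4 between the times, and 0 of the 9 kept their highest sample.
With normexp, 0 of the 9 were apart at 1 h and 0 between the times, as with both samples above background, and 3 in C-level cord against contralateral nerve; pathway genes apart were 0 between the segments, 0 at 24 h and 0 between the times. With the matched scans, 3 of the 9 were apart in unstimulated Schwann cells against that nerve, and 3 pathway genes between the times. Over all genes, distal against proximal nerve had 151 higher and 237 lower, 96 and 299 with the matched scans, and 26 and 85 with normexp. The matched scans moved the median of all genes in Schwann cells against nerve to 0.09. Changing the array or leaving out a gene makes its own change, and the cause of the others was not tested. Signals near background limit Gdf15 and Bmp7.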

Other observations

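In unstimulated Schwann cells, set against the contralateral nerve, 6 of 15 antagonist genes of the pathway were at least 2-fold higher and 7 lower, beside 21.6% and 20.8% of all genes. Of 11 other receptor genes 1 was higher and 4 lower. Grem1, an antagonist of bone morphogenetic proteins, was 4.45 ± 0.07 higher, while Sostdc1 was at -4.29 ± 0.03, Nbl1 at -2.54 ± 0.06 and the proteoglycan gene Bgn at -2.05 ± 0.05. Dcn, which encodes the TGF-beta-binding proteoglycan decorin and marks fibroblasts, was at most -14.17 on the log2 scale, as the cultures were not well above background. Acvr1c was at most -7.86, and Bmp4 was at -6.70 ± 0.22. Of 13 genes for SMADs and their regulators 5 were at least 2-fold higher and 0 lower. The inhibitory SMAD genes Smad6 and Smad7 were 2.45 ± 0.07 and 2.20 ± 0.07 higher, Pmepa1 2.67 ± 0.06 and Tgif1 1.89 ± 0.07. No cause was tested.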
